A study of Mus musculus with 24 samples.

Results

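The collagen genes were taken as all probe sets that named exactly 1 gene with a symbol of the form Col, a number, a and a number. The rule gave 42 genes with 1 probe set each, of 19505 genes measured. By how their proteins assemble, they comprised 11 fibrillar, 6 basement membrane, 3 network, 8 FACIT (fibril-associated with interrupted triple helices), 6 beaded filament, 2 multiplexin and 4 transmembrane collagens, and 2 others. Col7a1 and Col12a1 had no probe set naming them alone and were not analysed here. The arrays came from 24 samples of outbred ICR-CD1 mice, 4 in each of 6 groups. The SL groups were grandoffspring of obese mice, and the control groups were grandoffspring of control mice. Labels give whole embryo for embryonic day 7.5 (ED7.5), whole embryo for ED14.5, and liver for postnatal day 7.5 (PD7.5). The labels neither spell out SL nor tie samples to litters, so p-values measure only the spread between these samples.

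Collagens are secreted as chains that wind in threes into a triple helix. Fibrillar collagens pack into the fibres that give connective tissue its tensile strength, and FACIT collagens decorate the surface of those fibres. Type IV chains form the sheet of the basement membrane under epithelia and around vessels, while network collagens such as types VIII and X build hexagonal lattices. In the liver, stellate cells and portal fibroblasts are the main source of fibrillar collagen. In the mouse uterus, the stroma around an implanted embryo is remodelled into the decidua, which is rich in collagen.

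The promoters below are those of Col1a2, Col3a1 and Col18a1, which were among the collagens called between the ages. Other collagens, such as Col4a2, differed more between the embryonic ages. They were taken from RefSeq on build GRCm38.p6, where 34 of the 42 collagens had a window, 37 windows in all. Each sequence of 250 bases runs 5′ to 3′ on the gene's strand and ends 1 base before the transcription start. Capitals mark 3 motifs, searched on both strands. The CCAAT box is spelt CCAAT. The GC box is spelt GGGCGG. The TATA box is spelt TATAAA. On the other strand they read as their reverse complements. The stretch shown for Col1a2, a chain of type I collagen, is chr6:4505368-4505617 on the plus strand. That for Col3a1, the chain of type III collagen, is chr1:45311288-45311537 on the plus strand. Col18a1, which encodes the basement membrane proteoglycan chain that releases endostatin, has 2 annotated starts, with chr10:77166531-77166780 and chr10:77113706-77113955 before them on the minus strand.
Col1a2: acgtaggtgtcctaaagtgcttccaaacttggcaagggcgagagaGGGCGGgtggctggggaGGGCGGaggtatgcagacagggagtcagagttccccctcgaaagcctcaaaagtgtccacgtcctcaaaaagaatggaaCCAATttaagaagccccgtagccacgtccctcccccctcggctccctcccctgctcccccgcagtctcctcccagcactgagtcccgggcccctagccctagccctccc
Col3a1: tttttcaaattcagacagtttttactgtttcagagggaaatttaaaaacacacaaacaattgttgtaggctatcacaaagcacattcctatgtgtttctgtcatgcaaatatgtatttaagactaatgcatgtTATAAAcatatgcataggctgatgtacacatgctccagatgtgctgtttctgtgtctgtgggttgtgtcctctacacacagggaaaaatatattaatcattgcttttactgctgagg
Col18a1, upstream start: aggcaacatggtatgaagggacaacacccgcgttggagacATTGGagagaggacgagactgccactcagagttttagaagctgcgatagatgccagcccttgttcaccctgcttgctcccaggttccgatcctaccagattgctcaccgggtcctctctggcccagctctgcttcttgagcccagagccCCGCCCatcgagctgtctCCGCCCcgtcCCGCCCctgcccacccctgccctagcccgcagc
Col18a1, downstream start: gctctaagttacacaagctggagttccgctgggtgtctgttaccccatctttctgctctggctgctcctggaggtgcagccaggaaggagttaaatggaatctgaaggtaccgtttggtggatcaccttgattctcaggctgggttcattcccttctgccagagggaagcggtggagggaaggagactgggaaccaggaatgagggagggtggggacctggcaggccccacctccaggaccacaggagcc

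Col4a1 and Col4a2 are transcribed away from each other, and their annotated 5′ ends overlap by 22 bases. A GC box stood in 21 of the 37 collagen windows (56.8%), against 32.7% of 32851 windows of all genes. Among the windows of collagens above background on all 12 control arrays it stood in 3 of 9 (33.3%). CCAAT stood in 12 collagen windows (32.4%), against 33.8% of all windows, and TATAAA in 5 (13.5%), against 12.4%. A match of letters is a description and marks no binding site.

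Values are log2 probe set summaries, and the background of an array was the 75th percentile of its 5222 intron control probe sets. Between 48.3% and 64.1% of all genes lay above it. It ran between 5.05 and 6.53, and was highest on ED7.5 control replicate 2 (6.53) and ED14.5 control replicate 1 (6.51). Marker genes were set against the label whole embryo. On the ED7.5 arrays all 13 decidua markers, headed by Prl8a2 and Prl3c1, were above background on every array of both groups, whereas in each group 1 of 8 epiblast markers was. Of 8 parietal and visceral endoderm markers, headed by Pth1r and Thbd, 6 in SL and 4 in control samples were above background on all ED7.5 arrays, and of 6 neuron markers 3 in SL and 2 in control samples. On the ED14.5 arrays all 10 hepatocyte markers, headed by Alb and Afp, were above background throughout, and no chondrocyte, neuron or skeletal muscle marker was above background on all arrays of a group. The same 10 hepatocyte markers were above background on every PD7.5 array. The embryonic groups are called by their age.

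At ED7.5, 22 collagens lay above background on all 4 SL arrays and 16 on all 4 control arrays. At ED14.5 these counts were 13 in SL and 12 in control samples, and in PD7.5 liver they were 17 in SL and 14 in control samples. Among the ED7.5 control arrays, the one with the highest background had 16 collagens above it and the one with the lowest had 29. With the 95th percentile of the intron probes as background they were 12 and 9 at ED7.5, 4 and 2 at ED14.5, and 8 and 8 in PD7.5 liver, SL before control. On all 24 arrays 11 collagens lay above background. They were the fibrillar Col1a1, Col1a2, Col3a1 and Col5a2, the basement membrane chains Col4a1 and Col4a2, the beaded filament chains Col6a1 and Col6a3, the FACIT Col14a1, the multiplexin Col18a1, and Col28a1. No network collagen was among them. On no array above background were 8 collagens: the cartilage chains Col2a1, Col9a1 and Col10a1, the fibrillar Col24a1, Col4a3, Col6a6, Col8a1, and Col17a1, a component of hemidesmosomes.

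**Figure D1:**
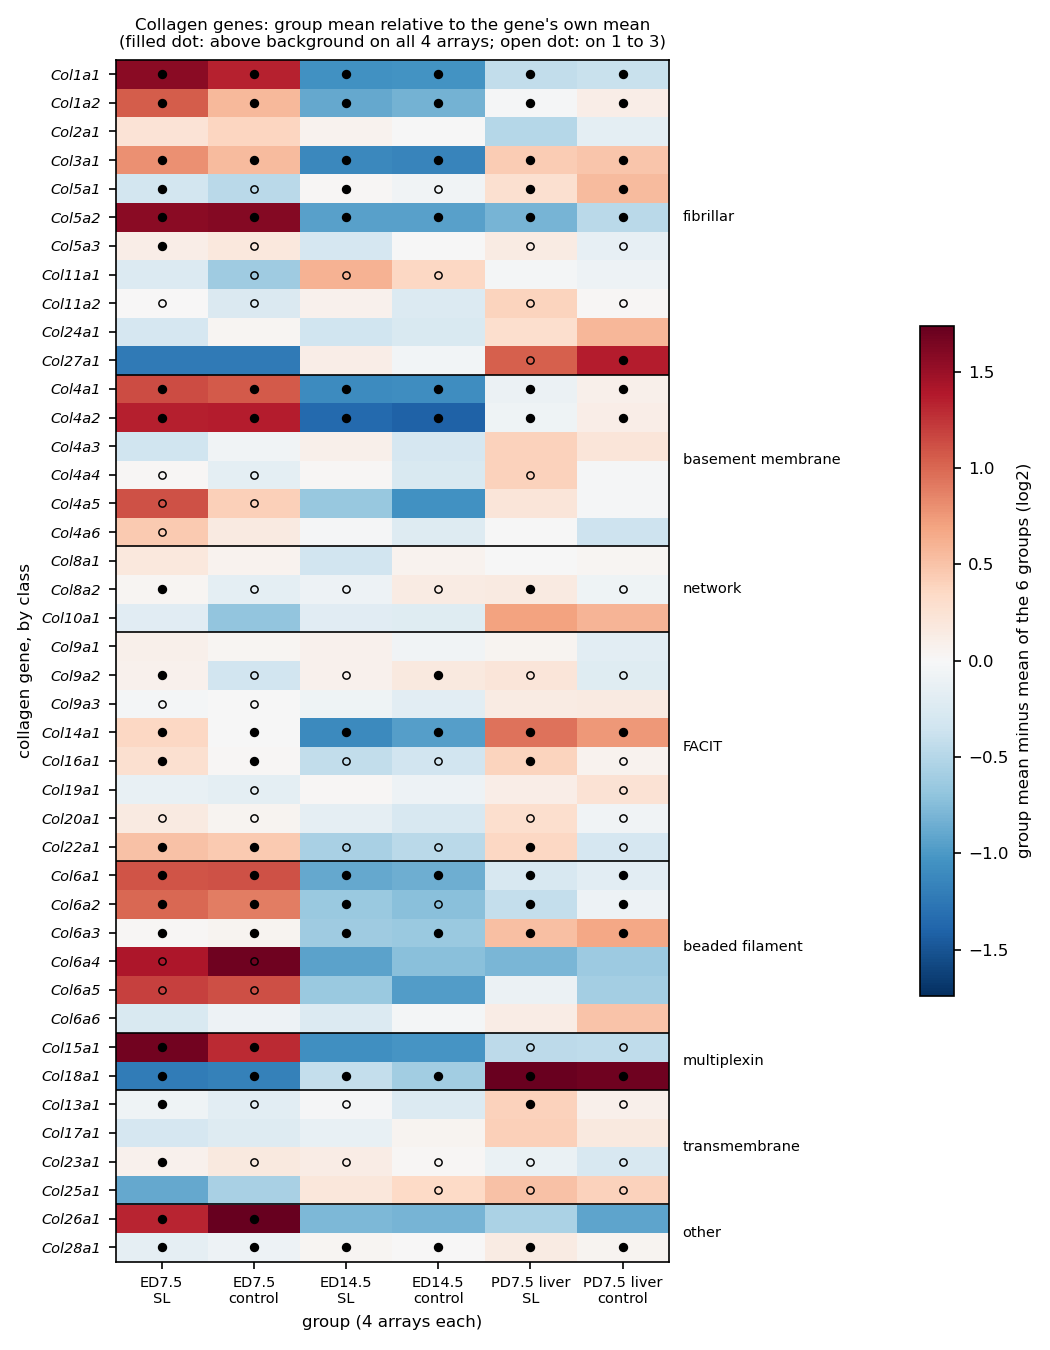
Group means of the 42 collagens (rows, by class) in the 6 groups (columns, 4 arrays each), as log2 difference from the mean of the 6 groups. Filled dots mark genes above background on all 4 arrays and open dots those above it on 1 to 3. Col1a1, Col4a1, Col4a2 and Col6a1 are red at ED7.5 and blue at ED14.5, and Col18a1 and Col27a1 are blue at ED7.5 and red in PD7.5 liver.

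The comparison of the ages asks at which age and in which tissue each collagen was expressed, with control samples here and SL samples as a separate set of arrays. Age and sampled tissue cannot be told apart, and in bulk samples neither can fewer cells of a type and less RNA per cell. At ED14.5, 24 collagens differed from ED7.5 in control samples in limma (Benjamini-Hochberg adjusted p under 0.05 over all genes), where 51.9% of all genes did. Of these, 18 were lower, against 26.3% of all genes, and 6 were higher, against 25.6%. The median difference over the 42 was -0.27, against 0.03 over all genes. In PD7.5 liver, 17 collagens were higher than at ED14.5 and 0 were lower, where 20.5% of all genes were higher, 24.6% lower and 45.2% called in either direction. The median difference was 0.36, against -0.02 over all genes. That count was 11 without ED14.5 control replicate 1 and 11 without PD7.5 liver control replicate 4. By called differences, 12 collagens were lower at ED14.5 than at ED7.5 and higher in PD7.5 liver than at ED14.5: Col1a1, Col1a2, Col3a1, Col5a2, Col4a1, Col4a2, Col4a5, Col6a1, Col6a2, Col6a3, Col14a1 and Col15a1. Col20a1, Col22a1, Col26a1, Col2a1, Col6a4 and Col6a5 were lower at ED14.5 with no call in the later step, and Col11a1, Col25a1 and Col9a2 were higher there with no later call. Col10a1 and Col24a1 were called only as higher in PD7.5 liver, with every control array of both below background. Col25a1 was above background on no ED7.5 control array and on 1 ED14.5 control array. Col6a4 and Col6a5 were above it on 3 and 2 ED7.5 control arrays and on no ED14.5 control array. Both steps were upward for Col5a1, Col18a1 and Col27a1. The 16 called in neither were Col11a2, Col13a1, Col16a1, Col17a1, Col19a1, Col23a1, Col28a1, Col4a3, Col4a4, Col4a6, Col5a3, Col6a6, Col8a1, Col8a2, Col9a1 and Col9a3. The steps share the ED14.5 control arrays. Several of these calls depended on the settings. Between ED7.5 and ED14.5, that of Col20a1 was lost in 11 of 16 alternatives, that of Col2a1 in 10 of 15, that of Col5a1 in 8 of 16 and that of Col11a1 in 5 of 16. Between ED14.5 and PD7.5 liver, that of Col15a1 was lost in 11 of 15, that of Col6a2 in 7, those of Col1a1 and Col6a1 in 6, those of Col5a1 and Col5a2 in 3, and that of Col10a1 in 4 of 14.

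Of the 11 fibrillar collagens, 5 were lower and 3 higher at ED14.5 than at ED7.5, where 26.3% and 25.6% of all genes were. In PD7.5 liver 7 were higher than at ED14.5, where 20.5% of all genes were. These counts include genes near or below background. Col2a1 and Col24a1 were above it on no array, and Col11a1 on 1 ED7.5 and 2 ED14.5 control arrays. Col5a2, a chain of the type V collagen that sets fibril diameter, had the largest fall of the class. Its log2 values were 6.85, 6.79, 7.11 and 7.15 on the ED14.5 control arrays and 9.27, 9.46, 9.64 and 9.68 on the ED7.5 control arrays. The groups were far apart, with a difference of -2.54 (SE 0.136, adjusted p = 1.01e-07, limma). Col3a1 had the largest rise of the class in PD7.5 liver. Its values there were 10.42, 10.26, 10.70 and 10.74 in control samples, against 8.73, 8.57, 9.62 and 8.69 at ED14.5. The highest ED14.5 value, of replicate 3, lay below every liver value, and the difference was 1.63 (SE 0.233, adjusted p = 0.000251, limma). Type I collagen, the main collagen of bone, skin and tendon, is a trimer of Col1a1 and Col1a2 chains. Col1a1 averaged 10.44 ± 0.20 at ED7.5, 8.06 ± 0.35 at ED14.5 and 8.71 ± 0.37 in PD7.5 liver of control samples (SD, n = 4 each). ED14.5 minus ED7.5 was -2.38 (SE 0.181), and the liver arrays overlapped those at ED14.5. Col27a1, a minor fibrillar collagen of developing cartilage, moved the other way. Its control values were 3.79, 4.08, 4.26 and 5.03 at ED7.5 and 5.93, 5.49, 5.35 and 5.14 at ED14.5, all below background, so no fold is given for that step. In PD7.5 liver all 4 control arrays were above background, at least 1.69-fold higher than at ED14.5 (adjusted p = 0.000188, limma).

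Of the 6 basement membrane chains, 3 were lower at ED14.5 and 3 higher in PD7.5 liver, and both times these were Col4a1, Col4a2 and Col4a5. Counted in either direction, the share called was near that of all genes (51.9% and 45.2%). Of all genes, 26.3% were lower at ED14.5 and 20.5% higher in PD7.5 liver. Col4a1 and Col4a2 form the type IV trimer found in nearly all basement membranes. On the control arrays Col4a2 was at 9.55, 9.35, 9.41 and 9.91 at ED7.5, at 6.60, 6.82, 6.67 and 7.05 at ED14.5, and at 8.09, 8.17, 8.49 and 8.46 in PD7.5 liver. None of the 3 groups overlapped another. Its differences were -2.77 for ED14.5 minus ED7.5 (SE 0.153, adjusted p = 1.28e-07, limma) and 1.52 for PD7.5 liver minus ED14.5 (SE 0.147, adjusted p = 1.73e-05, limma). Its neighbour Col4a1 differed by -2.15 and 1.18 in the same comparisons. Col4a5, which with Col4a3 and Col4a4 forms the type IV trimer of the glomerular basement membrane, was called in both steps but lay above background on 2 ED7.5 control arrays and on none of the later control arrays.

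No network collagen was called between ED7.5 and ED14.5 in control samples. Col10a1, the collagen of hypertrophic cartilage, was called in PD7.5 liver against ED14.5 (adjusted p = 0.0258, limma), but every array of both groups was below background, so no difference is given. Of the 8 FACIT collagens, 3 were lower and 1 higher at ED14.5, and 1 was higher in PD7.5 liver. At ED14.5 the share called was near that of all genes (26.3% lower and 25.6% higher, 51.9% in all). In PD7.5 liver it was below that of all genes (20.5% higher, 45.2% in all). Col14a1, which binds the surface of type I fibrils, was at 7.97, 8.36, 8.35 and 8.08 on the ED7.5 control arrays and at 7.33, 7.38, 7.25 and 7.02 at ED14.5. Its liver values were 8.98, 8.91, 8.90 and 9.05, above every value at both earlier ages. The differences were -0.95 (SE 0.132) and 1.72 (SE 0.116, adjusted p = 1.63e-06, limma). Col9a2, a chain of the cartilage FACIT type IX, was the FACIT that was higher at ED14.5. It was at 6.62, 6.19, 6.28 and 6.37 there and 5.94, 5.66, 5.74 and 6.11 at ED7.5 (0.50, SE 0.138, adjusted p = 0.0112, limma). Without the 2 arrays of highest background, left out after the data were seen, the adjusted p of Col9a2 was 0.0624 (limma). The call was also lost in the fit of all 24 arrays, so in 2 of 16 alternatives. Col9a2 lay above background on 2 of the ED7.5 control arrays. In SL samples it averaged 6.265 at ED14.5 and 6.265 at ED7.5 and was not called, so the rise was not seen there.

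Among the remaining classes, 5 of 6 beaded filament chains were lower at ED14.5 and 3 were higher in PD7.5 liver. Over all genes these shares were 26.3% and 20.5%. In PD7.5 liver the share called in either direction was near that of all genes (45.2%). Type VI collagen links cells to the surrounding matrix. Col6a1 averaged 8.78 ± 0.30 at ED7.5, 6.81 ± 0.36 at ED14.5 and 7.48 ± 0.36 in PD7.5 liver of control samples (SD, n = 4 each). Col18a1 had the largest rise of all 42, and was chosen for its array values after these were seen. Its control values were 8.99, 8.65, 8.89 and 9.36 at ED7.5, 9.45, 9.37, 9.54 and 9.82 at ED14.5 and 11.77, 11.77, 11.89 and 11.93 in PD7.5 liver. The ages did not overlap. It was 4.9-fold higher in PD7.5 liver than at ED14.5 (log2 difference 2.29, SE 0.126, adjusted p = 4.39e-07, limma). The other multiplexin, Col15a1, went the other way between the embryonic ages, and was at least 2.18-fold lower at ED14.5, where no control array was above background. Col26a1 likewise was at least 2.29-fold lower at ED14.5. Col28a1 was above background on all 24 arrays and was called in no comparison of the ages. PD7.5 liver was also set against ED7.5, a comparison added after the levels were seen. There 10 collagens were higher and 11 lower in control samples, against 20.2% and 29.7% of all genes (49.9% in all), among them Col18a1 (2.87). Col26a1, on no liver array above background, was at least 2.69-fold lower. In SL samples 12 were higher and 12 lower, against 21.2% and 30.2% of all genes (51.4% in all).

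**Figure D2:**
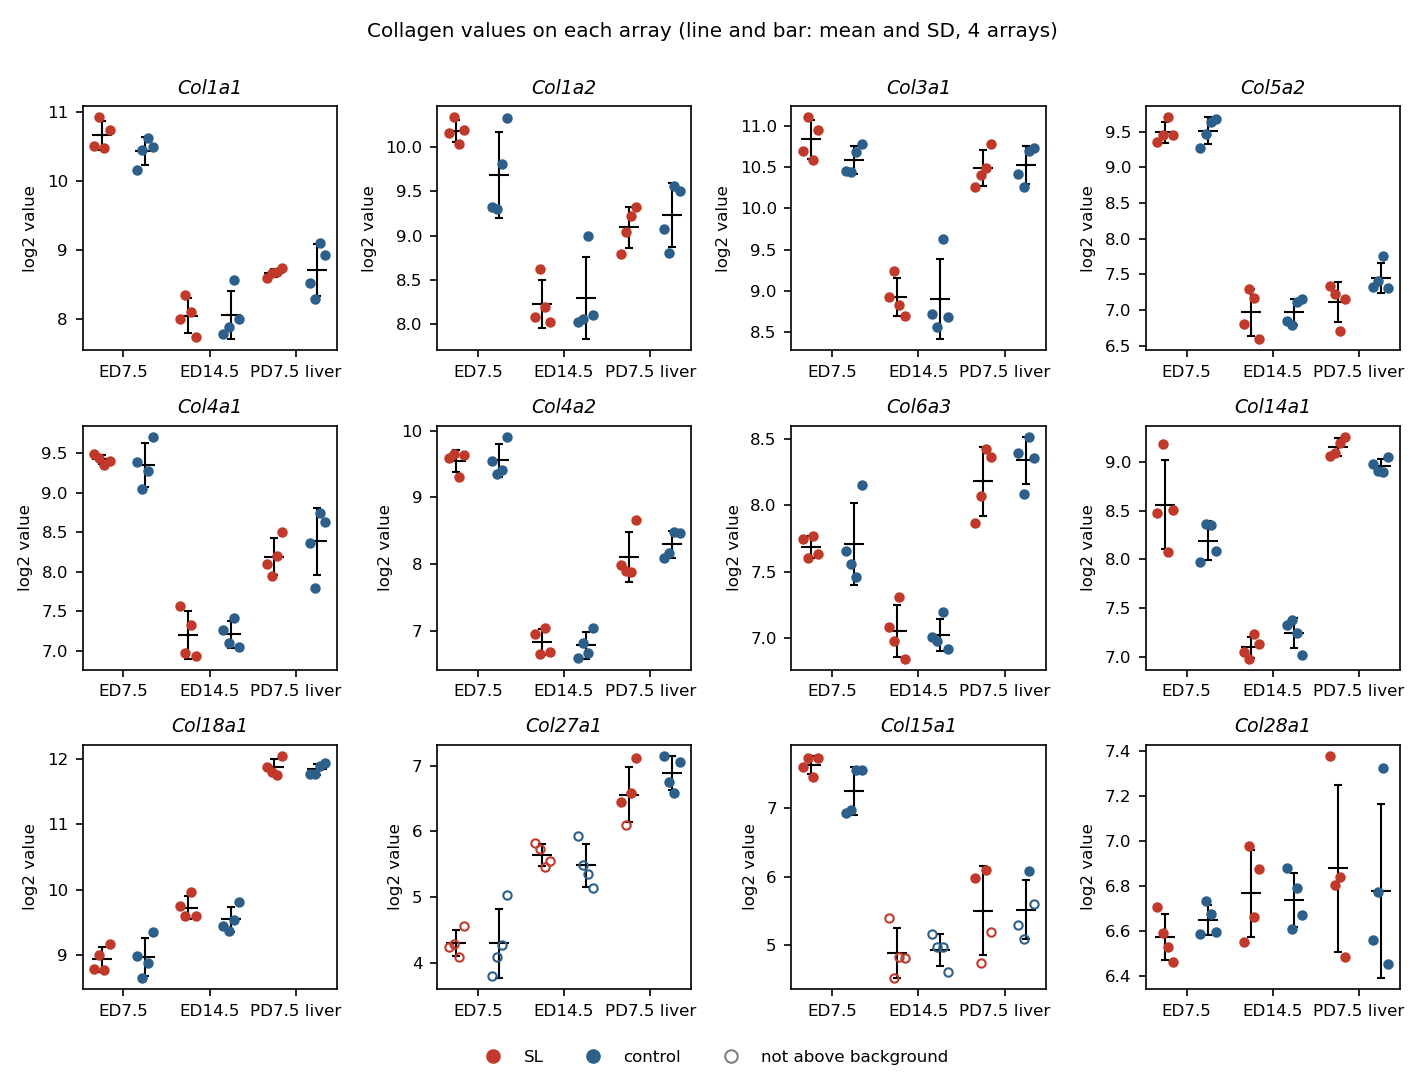
Log2 values of 12 collagens on each array at ED7.5, ED14.5 and in PD7.5 liver, SL (red) left of control (blue); lines and bars give mean and SD of 4 arrays, and open points lie below background. Col1a1, Col5a2 and Col4a2 are highest at ED7.5 and Col18a1 is highest in PD7.5 liver, in both arms.

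The SL samples gave the age differences a second time on arrays not used above. At ED14.5, 23 collagens differed from ED7.5, 4 higher and 19 lower, where 26.4% of all genes were higher and 27.1% lower (53.6% in all). With quantile normalization within the comparison the split was 7 higher and 18 lower. Of the calls, 20 were shared in direction with the control samples, which is 87% of the SL calls and 83.3% of the control calls. Called only in control samples were Col2a1, Col5a1, Col9a2 and Col20a1, and only in SL samples Col5a3, Col8a1 and Col16a1. In PD7.5 liver, 19 differed from ED14.5, 17 higher and 2 lower (Col2a1 and Col11a1), where 21.4% of all genes were higher and 24.4% lower (45.8% in all). With control samples 13 calls were shared, which is 68.4% of the SL calls and 76.5% of the control calls. Called only in control samples were Col5a1, Col5a2, Col6a2 and Col15a1. Called only in SL samples were Col2a1, Col11a1, Col13a1, Col16a1, Col17a1 and Col22a1. Col5a1 was thus called in neither SL step, and Col16a1 in both (-0.71 and 0.81), though in neither step in control samples. Differences had the same sign in both arms for 37 of 42 collagens in the earlier comparison and 36 of 42 in the later one. Sharing between the arms was not counted over all genes, so these figures do not show that collagens differ from other genes in this. Col4a2 differed by -2.70 and 1.27 in SL samples, Col5a2 by -2.53 between the embryonic ages, and Col18a1 by 2.14 in the later comparison.

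**Figure D3:**
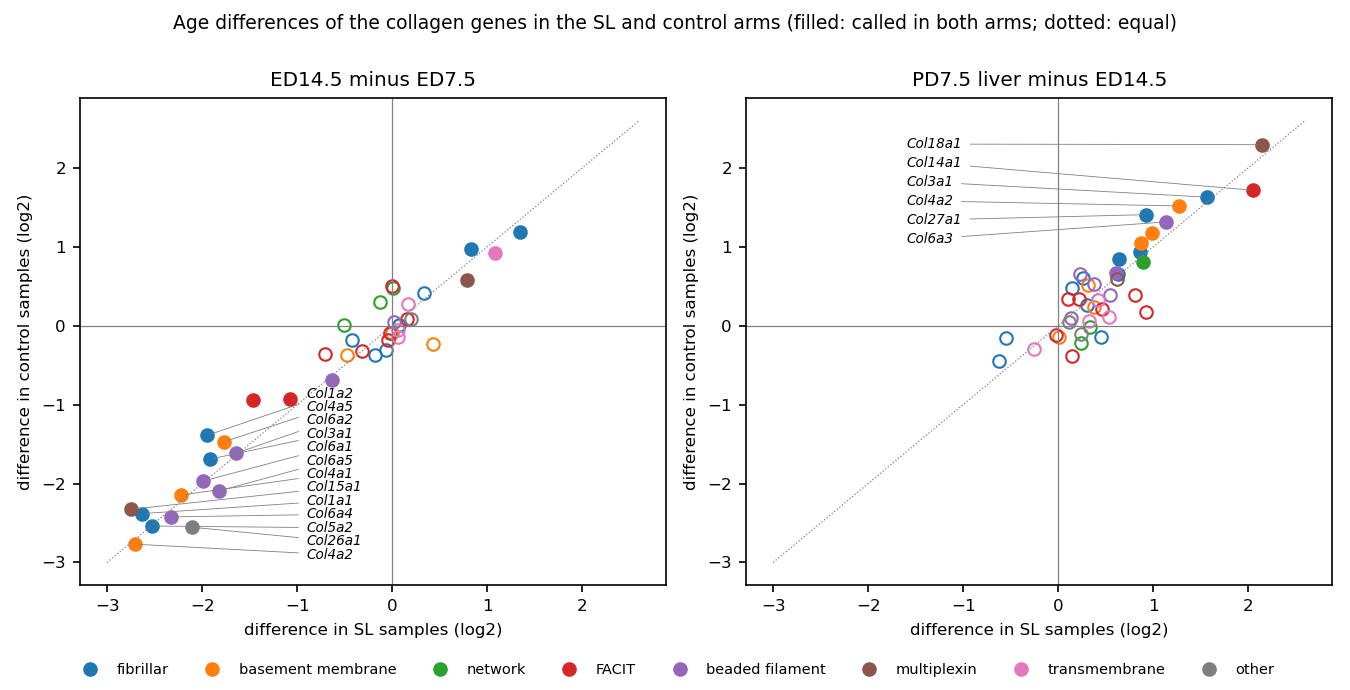
Log2 age differences of the 42 collagens in SL samples (x axis) and control samples (y axis), coloured by class and filled where called in both. Points lie along the dotted line of equal differences, with Col4a2 lowest on the left and Col18a1 highest on the right.

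Genes that make, process or bind collagen were counted in the same comparisons, in lists chosen by textbook role. In control samples 26.3% of all genes were lower at ED14.5 than at ED7.5 and 25.6% higher (51.9% in all). At ED14.5, 9 of 12 measured genes for procollagen processing and crosslinking were lower than at ED7.5 in control samples and 1 was higher, with a median difference of -2.05. Lox, the lysyl oxidase that crosslinks collagen, fell by 4.38 on the log2 scale (SE 0.167). Of 14 hydroxylation and glycosylation genes, 8 were lower and 1 higher, led by Plod2, the hydroxylase of telopeptide lysines, at -4.26. Of 8 folding and export genes, 7 were lower, among them Sparc, a collagen-binding matrix glycoprotein, at -2.56. Of 8 collagen receptors, 6 were lower and 1 higher. Integrin chain Itga2 was at -3.28, and Gp6, the collagen receptor of platelets, was at least 3.42-fold higher. Of 20 basement membrane partners, 15 were lower and 2 higher, with Smoc2 at least 14.3-fold lower and Frem2 at 1.25. Of 13 fibril-associated matrix proteins, 5 were lower and 3 higher, with Postn (periostin) at -2.97 and Lum (lumican) at 1.01. Of 13 regulators of collagen transcription, 6 were lower and 1 higher, with Prrx1 at least 3.1-fold lower and Tgfb1 at 0.58. The share of regulators called (53.8%) was near that of all genes.

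In PD7.5 liver against ED14.5, in control samples, 9 of the 13 fibril-associated proteins were higher and 1 lower, and 11 of the 20 basement membrane partners were higher and 2 lower, where 20.5% of all genes were higher and 24.6% lower (45.2% in all). Lama2, a laminin chain, was at least 2.4-fold higher. Of the folding and export genes 5 were higher and 1 lower, with Sparc at 1.47. Of the processing genes 4 were higher and 1 lower, with Bmp1, the protease that removes the procollagen C-propeptide, at 2.17 (SE 0.119). Of the hydroxylation genes 4 were higher and 3 lower, of the receptors 2 and 1, and of the regulators 5 and 2. The shares called in these 3 lists (50%, 37.5% and 53.8%) were near that of all genes. The share called among the processing genes was near it as well. Marker levels of cell types that make collagen are given beside these values, for control samples. The summed linear level of 10 stellate cell markers, headed by Lrat and Reln, ran in control samples between 11450 and 12296 at ED7.5, 1726 and 2013 at ED14.5, and 4196 and 5417 in PD7.5 liver, with 7, 6 and 9 of them above background on all 4 arrays. Their mean log2 value gave another order, between 8.03 and 8.25, between 6.92 and 7.18, and between 8.26 and 8.73 at these ages. Lhx2 and Colec11 of this list were above background on no ED7.5 control array, and Des and Rgs5 on no ED14.5 control array. The sum at ED7.5 therefore does not show that stellate cells were present there. The sum of 7 fibroblast and mesothelium markers, headed by Thy1 and Mfap4, ran between 3271 and 3524, between 549 and 622, and between 900 and 1054 at the same ages, with 3 above background on all arrays each time. The sum of 9 endothelium markers, headed by Pecam1 and Cdh5, ran between 7651 and 9208, between 4394 and 4903, and between 7121 and 8926, with 5, 7 and 9 above background on all arrays. Their mean log2 value ran between 7.98 and 8.27, between 8.33 and 8.46, and between 9.27 and 9.64. The sum of the 8 parietal and visceral endoderm markers ran between 1282 and 1710, between 605 and 714, and between 1079 and 1451, with 4, 2 and 4 above background on all arrays. Their part in the collagen differences was not tested.

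The comparison of SL with control samples asks whether collagens differ in grandoffspring of obese mice. At none of the 3 ages was a collagen called in SL against control samples (0 of 42 each in limma, where 0.00513%, 0.0513% and 0% of all genes were called at ED7.5, ED14.5 and in PD7.5 liver). At an unadjusted p under 0.05 there were 4, 3 and 2 collagens, which is 9.52%, 7.14% and 4.76% of them, against 5.49%, 11.4% and 7.91% of all genes. The smallest adjusted p of a collagen was 0.823, 0.251 and 0.569. Groups did not overlap for 0, 1 and 1 collagens, where 3.05%, 7.98% and 4.43% of all genes did not. A p that misses the threshold does not show that the groups were alike, and the intervals below give the differences that remain possible.

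At ED7.5, the median SL minus control difference was 0.16 for the fibrillar, 0.13 for the basement membrane, 0.20 for the network and 0.08 for the FACIT collagens, against 0.06 for all 42 and 0.00 for all genes. The network median was 0.29 without ED7.5 control replicate 1. These medians include members below background. The basement membrane chains above background on all 8 arrays, Col4a1 and Col4a2, differed by 0.07 and -0.01. Col1a2 had values of 10.16, 10.34, 10.04 and 10.19 in SL samples and 9.33, 9.30, 9.81 and 10.32 in control samples. Of the control arrays, 3 lay below every SL array and the other lay among them. The difference was 0.49 (95% confidence interval 0.02 to 0.97, adjusted p = 0.887, limma). Its partner Col1a1 differed by 0.23 (-0.08 to 0.55) and Col3a1 by 0.25 (-0.07 to 0.56). Col15a1, a collagen of the outer basement membrane, had 7.60, 7.74, 7.46 and 7.73 in SL and 6.93, 6.97, 7.56 and 7.56 in control samples (0.38, interval -0.01 to 0.76). Col9a2 had 6.68, 6.30, 6.22 and 5.86 in SL and 5.94, 5.66, 5.74 and 6.11 in control samples (0.40, interval 0.01 to 0.80), and 2 of the control arrays were above background. Col26a1 ran the other way, with 6.41, 7.41, 6.54 and 7.28 in SL and 7.18, 7.13, 7.44 and 7.57 in control samples (-0.42, interval -0.94 to 0.10). In each of these genes the groups overlapped. The collagen with the smallest p, Col4a5 (0.70, interval 0.14 to 1.26), was above background on 3 SL and 2 control arrays.

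At ED14.5 the medians were 0.02 for the fibrillar, 0.24 for the basement membrane, -0.23 for the network and 0.00 for the FACIT collagens, against 0.03 for all 42. The basement membrane chains Col4a3, Col4a4, Col4a5 and Col4a6 were above background on no array of this age, while Col4a1 and Col4a2 differed by -0.01 and 0.05. Of the network collagens Col8a2 was above background on 1 SL and 2 control arrays, and the other two on none. Of the members above background, Col18a1 had the smallest p, with 9.76, 9.60, 9.96 and 9.59 in SL and 9.45, 9.37, 9.54 and 9.82 in control samples (0.18, interval -0.11 to 0.48). Col14a1 had 7.05, 6.98, 7.23 and 7.14 in SL and 7.33, 7.38, 7.25 and 7.02 in control samples (-0.14, interval -0.39 to 0.10). Both pairs of groups overlapped. Col6a2 had 7.11, 6.95, 6.94 and 6.77 in SL and 6.47, 6.89, 7.26 and 6.83 in control samples (0.08, interval -0.28 to 0.45), and its sign turned without ED14.5 control replicate 1 (-0.05). Col9a2 had 6.69, 6.25, 6.01 and 6.12 in SL and 6.62, 6.19, 6.28 and 6.37 in control samples (-0.10, interval -0.46 to 0.27). These pairs of groups overlapped as well. Col4a5 again had the smallest p of all 42, and Col5a3 was the collagen whose groups did not overlap. Both were below background on all 8 arrays, so no difference is given.

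In PD7.5 liver the medians were -0.14 for the fibrillar, 0.21 for the basement membrane, 0.11 for the network and 0.28 for the FACIT collagens, against 0.08 for all 42. Col4a1 and Col4a2, the basement membrane chains above background on all 8 arrays, lay on the other side of 0 from their class median, at -0.20 and -0.19. Of the FACIT collagens only Col14a1 was above background on all 8 arrays, and no network collagen was. Those 2 medians therefore rest mostly on members near or below background. Col22a1, a FACIT of tissue junctions, had the smallest p. Its values were 6.85, 7.07, 6.84 and 6.60 in SL liver and 5.81, 6.38, 6.70 and 5.88 in control liver. A single control array lay among the SL arrays, and the difference was 0.65 (interval 0.17 to 1.12, adjusted p = 0.569, limma). Col14a1 had 9.06, 9.09, 9.19 and 9.26 in SL liver and 8.98, 8.91, 8.90 and 9.05 in control liver, with no overlap and a difference of 0.19 (interval -0.07 to 0.45). Col5a2 had 7.34, 7.22, 6.70 and 7.16 in SL liver and 7.31, 7.41, 7.76 and 7.31 in control liver (-0.34, interval -0.74 to 0.05). Col6a2 had 7.27, 7.09, 7.31 and 7.04 in SL liver and 7.49, 6.99, 7.95 and 7.61 in control liver (-0.34, interval -0.78 to 0.11). Both pairs overlapped.

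The sign of a liver difference went with the level of the gene. Of 20 collagens with a mean above background, 11 (55%) were lower in SL liver, as were 55.8% of all such genes. Of 22 below it, 14 (63.6%) were higher in SL liver, as were 58.6% of all such genes. On these arrays exon control probes stood less clearly above intron control probes in SL liver than in control liver. The chance that an exon probe is the brighter averaged 0.902 in SL liver (between 0.897 and 0.904). In control liver it averaged 0.913 (between 0.906 and 0.920), with no overlap (exact two-sided permutation p = 0.0286, the smallest that 70 splits allow). At the other ages this measure gave an exact two-sided permutation p = 0.743 (ED7.5) and an exact two-sided permutation p = 0.886 (ED14.5). The array background gave an exact two-sided permutation p = 0.4 in PD7.5 liver. At ED7.5 the background gave an exact two-sided permutation p = 0.914, and at ED14.5 an exact two-sided permutation p = 0.857. These were not adjusted for the number of tests. The summed fibroblast and mesothelium markers ran between 836 and 862 in SL and between 900 and 1054 in control liver. Their mean log2 value overlapped, between 6.15 and 6.36 in SL and between 6.34 and 6.63 in control liver. Thy1, Wt1, Msln and Pi16 of this list were above background on no SL liver array, and Wt1 and Pi16 on no control liver array. Summed stellate cell markers ran between 4151 and 4893 in SL and between 4196 and 5417 in control liver, and smooth muscle markers, headed by Acta2 and Tagln, between 453 and 688 in SL and between 628 and 922 in control liver. Endothelium markers ran between 6762 and 7953 in SL and between 7121 and 8926 in control liver. The part of these in the collagen differences was not tested.

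**Figure D4:**
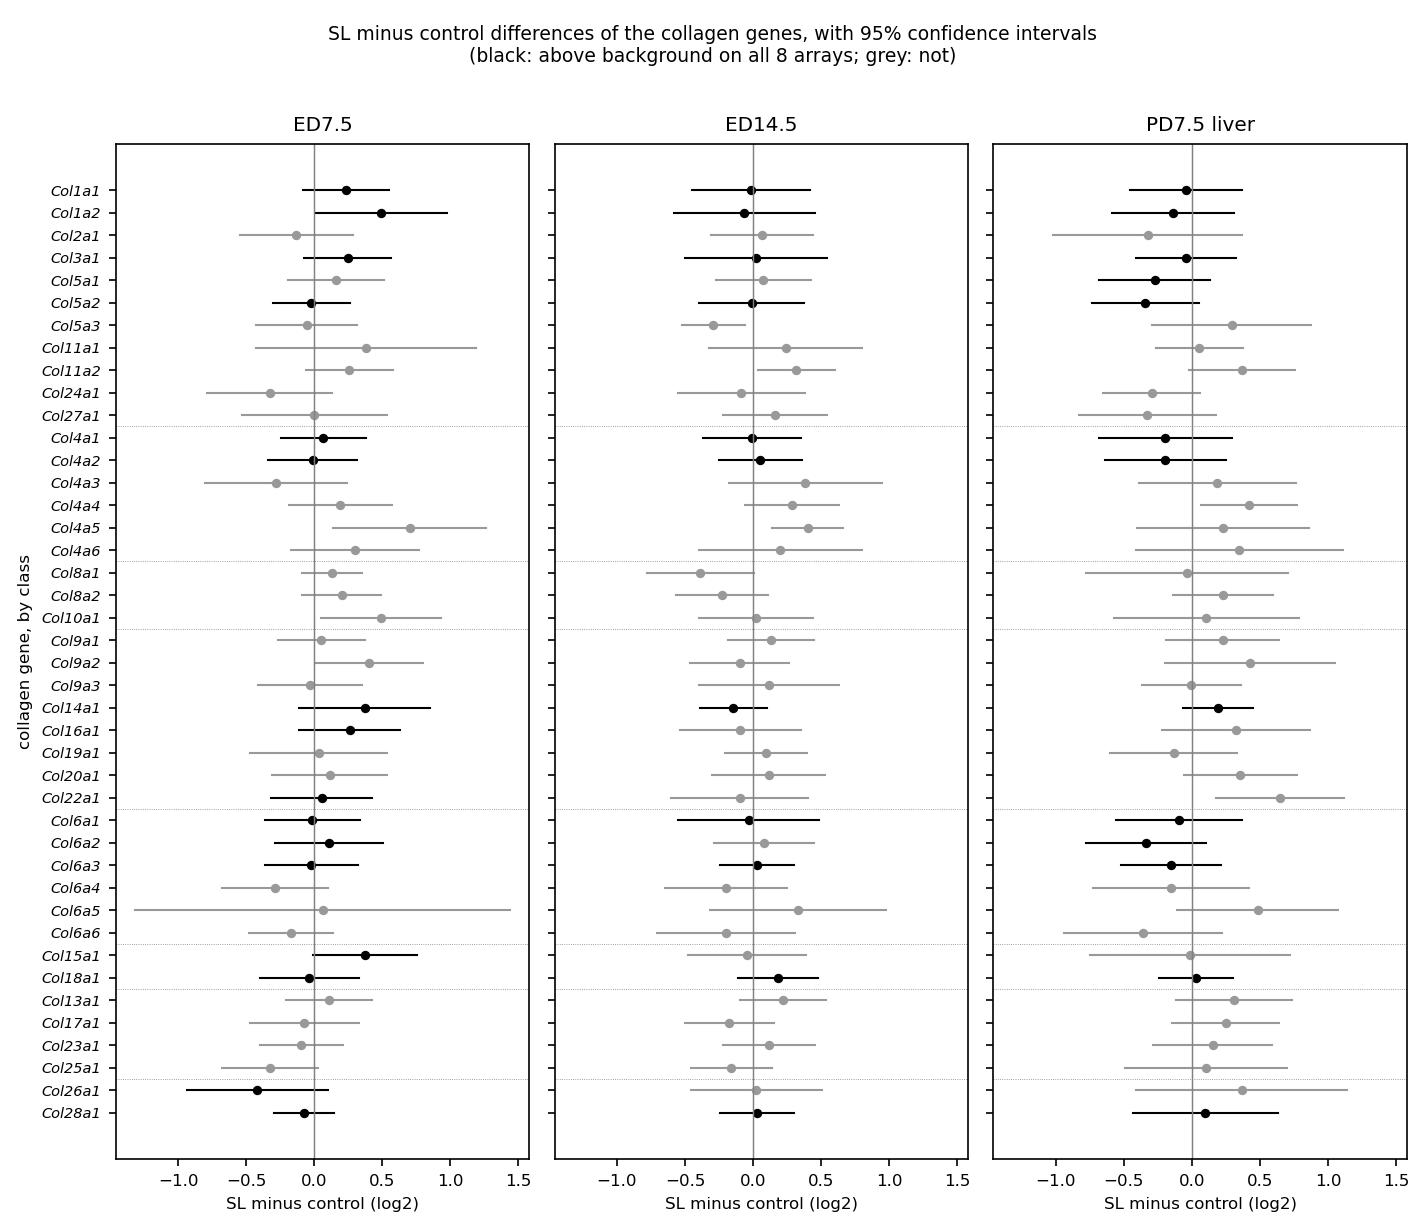
SL minus control differences (log2, points) with 95% confidence intervals (bars) for the 42 collagens at ED7.5, ED14.5 and in PD7.5 liver; black marks genes above background on all 8 arrays. Intervals leave out 0 for 4, 3 and 2 collagens at the 3 ages, and Col6a5 at ED7.5 has the widest.

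Whether the SL difference of a collagen changed with age was tested as an interaction over all 24 arrays. No collagen was called in ED14.5 against ED7.5, PD7.5 liver against ED14.5 or PD7.5 liver against ED7.5 (limma, 0 of 42 each, where 0.0769%, 0.0256% and 0.00513% of all genes were called). At an unadjusted p under 0.05 there were 1, 2 and 0, against 6.92%, 10.6% and 9.19% of all genes. No gene of the collagen pathway lists was called in SL against control samples either. At ED7.5 the difference was above 0 for 8 of 14 hydroxylation, 5 of 8 folding and export, 7 of 12 processing, 5 of 8 receptor, 10 of 13 fibril-associated, 15 of 20 basement membrane partner and 9 of 13 regulator genes, against 9858 of all 19505 genes. At an unadjusted p under 0.05 there were 0, 1, 2, 1, 6, 3 and 2 in the same order, against 5.49% of all genes. The fibril-associated genes with the smallest p were Fmod (0.84, adjusted p = 0.783, limma) and Kera (0.32). Ddr2, a receptor tyrosine kinase for fibrillar collagen, was at 0.50 (SE 0.148), Smoc1 at 0.38, Sec24d, a coat protein for procollagen export, at 0.30, and Tll1, a procollagen protease, at -0.44. At ED14.5 the smallest p-values belonged to Mrc2, an endocytic collagen receptor (0.41), Plod1, a lysyl hydroxylase (0.52), P4ha1, a prolyl hydroxylase (-0.35), and Ccn2, a matricellular target of TGF-beta (0.34). In PD7.5 liver the difference was below 0 for 12 of 14 hydroxylation, 5 of 8 folding and export, 8 of 12 processing, 7 of 8 receptor, 8 of 13 fibril-associated, 15 of 20 basement membrane partner and 7 of 13 regulator genes, against 9609 of all 19505 genes and 55.8% of genes above background. Of the hydroxylation genes, the smallest p-values were those of P4ha3 (-0.45) and Colgalt1 (-0.27). Pcolce and Pcolce2, enhancers of procollagen processing, were at -0.52 and -0.56, and Lum at -0.38. Ddr1, a collagen receptor kinase, was at -0.64, Kera (keratocan) at -0.51 and the laminin chain Lamb3 at -0.68.

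Within a group many of the collagens measured throughout had their extreme value on the same array. Of the 11 collagens above background throughout, 6 had their highest ED14.5 control value on replicate 3, and 8 had their highest PD7.5 liver SL value on replicate 4. At ED7.5, replicate 4 was highest for 8 of them in control samples, and replicate 3 was lowest for 8 in SL samples. ED14.5 SL replicate 4 was lowest for 8, and PD7.5 liver control replicate 3 was highest for 7. No other array was highest or lowest for more than 6. The mean deviation of the 11 from their group mean on these arrays was 0.26, 0.17, 0.25, -0.13, -0.20 and 0.25. Such counts were not made over all genes, so these figures do not set collagens apart from other genes. The marker sums on these arrays were highest of their group for endothelium on ED14.5 control replicate 3 (4903), for stellate cells and endothelium on PD7.5 liver SL replicate 4 (4893 and 7953), and for endothelium on ED7.5 control replicate 4 (9208). On ED14.5 SL replicate 4, where many of the collagens were lowest, the stellate sum was the highest of its group (1854). The stellate sums of ED14.5 control replicate 3 (1877) and ED7.5 control replicate 4 (11760) lay inside the ranges of their groups. So did both sums of ED7.5 SL replicate 3 and of PD7.5 liver control replicate 3. The fibroblast and mesothelium sum of PD7.5 liver control replicate 3 was the highest of its group (1054). The part of backgrounds and marker sums in the collagen values was not tested.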

How the data were processed

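Single-colour expression arrays of 24 samples were used, 4 per group. The deposited values are log2 probe set summaries that the authors made with RMA in oligo, per the submitters' processing notes. No source used here names the versions, the genome build or whether RMA was run on all arrays at once. No further normalization was applied. Of 29129 probe sets, 19572 named exactly 1 gene; for 55 genes with several, the brightest was used, which left 19505. Differences were fitted with limma 3.58.1 (R 4.3.3) on the 8 arrays of a comparison, or on 24 for interactions, adjusted by Benjamini-Hochberg over all genes, threshold 0.05, two-sided. The script was tested on simulated data. Against a group with no array above background, a fold was computed against that background and is a lower bound. Single values are given for the 4 collagens with the smallest p per SL comparison among members above background on all arrays of a group, and for the largest called, non-overlapping age difference per direction in the fibrillar, basement membrane, network and FACIT classes. Pathway genes were named as the smallest p-values or the largest called difference per list. Members and lists were chosen with earlier results of these data known. The number of arrays limits the precision. Alternatives were a variance trend, array weights, a replicate block, quantile normalization, all 24 arrays, probe set means, dropping the dimmest 33% of genes, and leaving out single arrays. Figures were drawn with matplotlib 3.10.9.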

Additional observations from a re-analysis of the deposited data

Results flagged for a closer look

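Of 48 groups of 4 arrays checked for a sample far from the others, 3 had one; chance alone marks about 1 in 20 groups. Col3a1 was at 9.62 on ED14.5 control replicate 3, where the other arrays lay between 8.57 and 8.73. Col4a2 was at 9.30 on ED7.5 SL replicate 3, where the others lay between 9.59 and 9.65. Col4a2 was at 8.66 on PD7.5 liver SL replicate 4, where the others lay between 7.89 and 7.98.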

How the results depend on the processing

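The counts of called collagens stayed at 0 in the SL comparisons and interactions under every alternative run. In PD7.5 liver minus ED14.5 in control samples the count of 17 ran between 11 and 18 without single arrays; it was 11 without ED14.5 control replicate 1 and 11 without PD7.5 liver control replicate 4, where fewer samples entered the fit. Counts ran between 20 and 25 for ED14.5 minus ED7.5 in control samples (reported 24), 21 and 25 in SL samples (23), 14 and 19 for PD7.5 liver minus ED14.5 in SL samples (19), 16 and 22 for PD7.5 liver minus ED7.5 in control samples (21), and 18 and 25 in SL samples (24). Leaving out the arrays with the highest background, chosen after seeing the data, gave 21 for ED14.5 minus ED7.5 in control samples. With the 95th percentile as background, collagens above it on all arrays numbered 12 in ED7.5 SL, 9 in ED7.5 control, 4 in ED14.5 SL, 2 in ED14.5 control, 8 in PD7.5 liver SL and 8 in PD7.5 liver control. The SL difference of Col6a2 at ED14.5 reversed to -0.0481 without ED14.5 control replicate 1 and was 0.216 without ED14.5 control replicate 3; the cause was not tested. Of the single-gene values, 1915 kept direction and call, 183 kept direction and lost the call, and 1 reversed. Same-numbered replicates correlated weakly (correlations of deviations between -0.165 and 0.116). In PD7.5 liver the values of replicates 2, 3 and 4 (0.097, 0.116 and 0.066) were above those with any other number. That of replicate 1 (-0.016) was not. At the embryonic ages this held for ED7.5 replicate 1 and ED14.5 replicate 2 only. With the replicate block the counts were 21 and 22 for ED14.5 minus ED7.5 in control and SL samples, 16 and 18 for PD7.5 liver minus ED14.5, 22 and 22 for PD7.5 liver minus ED7.5, and 0 in the SL comparisons and interactions. Values near background have no firm order.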
